A study of Oryctolagus cuniculus with 36 samples.

Results

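The response of the rabbit terminal ileum to obeticholic acid was described across genes in 12 of the 36 libraries of the series, 6 after vehicle and 6 after obeticholic acid. The 12 libraries were taken by their labels; the set of 10 used beside them leaves out 2 libraries because of their values. All came from wild-type rabbits (Oryctolagus cuniculus) that also underwent portal vein embolization, a blockade of portal branches to part of the liver, so vehicle and treated animals share that procedure. Pre-treatment was with obeticholic acid, abbreviated OCA in the labels, or with vehicle; the sources used here do not give its dose or length, or the animals' age and strain. Of 9419 Ensembl gene IDs in the ileum table, 9010 reached 10 normalized counts in 6 or more of the 12 libraries and were tested. The other 24 libraries, 12 from the non-embolized caudal lobe and 12 from the embolized cranial lobe of the liver, are in a separately normalized table and were used only to look up ileal genes.

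Bile acids released into the gut are taken back up mainly by the enterocytes of the terminal ileum. There they activate the nuclear receptor FXR, which in mammals induces bile acid export and binding proteins and the hormone FGF19 (FGF15 in mice), and represses the apical uptake transporter; FGF19 travels to the liver and lowers bile acid synthesis. Obeticholic acid is a semi-synthetic bile acid that activates FXR. The files give genes as Ensembl IDs without names, and the RefSeq table used here carries an Ensembl ID for 0 of its genes. The genes below are therefore given by ID, with no role, and neither the FXR targets nor the markers of ileal cell types could be read from them.

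The libraries held 11.2 to 24.5 M recovered reads (M, megareads), and 2 of them stood apart. In vehicle 6, ENSOCUG00000013891 took 27.7% of the normalized counts; in the other 11 libraries it was at 157 to 2013 normalized counts. The most abundant gene in each of those 11 was ENSOCUG00000029096, with 2.64 to 6.35% of the normalized counts. Of genes at 100 or more in each of the other 11 libraries, 115 of 5753 lay at least 10-fold below the lowest of them in vehicle 6. In obeticholic acid 1 there were 3 such genes, and in each other library between 0 and 2. Obeticholic acid 1 had instead 69 genes at 100 or more that lay at least 10-fold above the highest of the other libraries, against 37 in vehicle 6 and at most 4 elsewhere. The mean distance to the other libraries of the group (1 minus Spearman's correlation over the 9010 genes) was 0.183 for vehicle 6 and 0.162 for obeticholic acid 1, and 0.0561 to 0.0762 for the rest. Results are therefore given for 12 libraries and for the 10 without these 2.

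**Figure D1:**
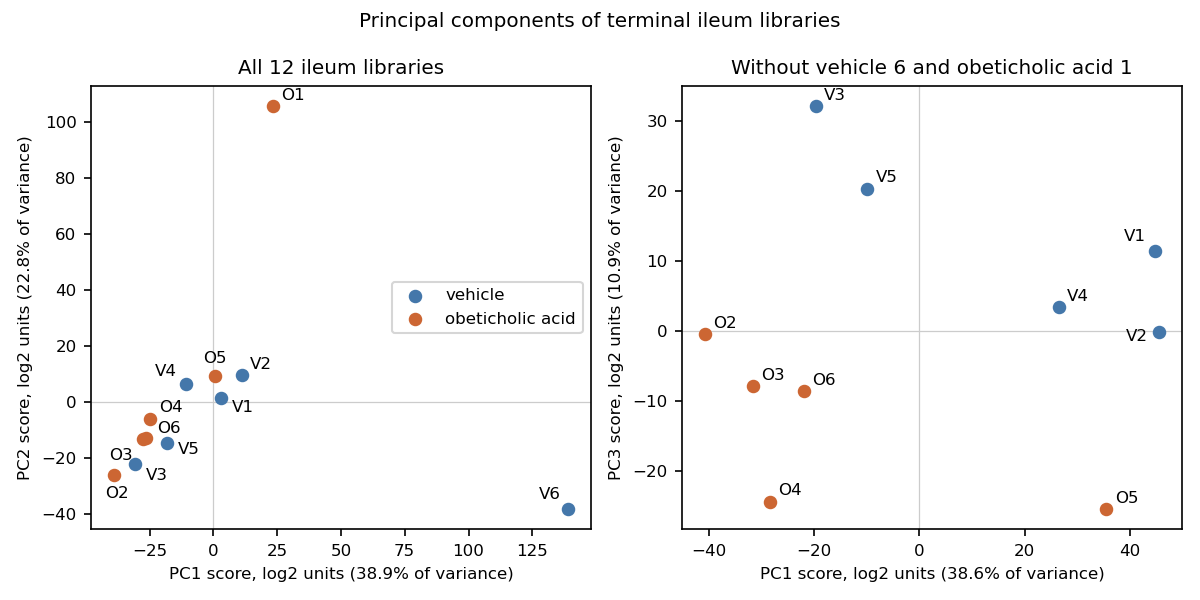
Principal component scores of log2(normalized count + 1) over 9010 genes; each point is 1 library (V, vehicle; O, obeticholic acid), for all 12 ileum libraries at left (components 1 and 2) and for 10 at right (components 1 and 3, a pair chosen after the scores were seen). At left V6 and O1 lie far from the others; at right V1, V2, V4 and O5 lie at 26.5 to 45.6 on component 1, and vehicle lies above obeticholic acid on component 3.

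Among the 10 remaining libraries the first component held 38.6% of the variance, and the 2 treatments overlapped on it. Vehicle 1, 2 and 4 and obeticholic acid 5 lay on 1 side, at 26.5 to 45.6, and the other 6 libraries at −40.8 to −9.93. The same 4 libraries had 30.4 to 33.4% of their normalized counts in their 100 most abundant genes, and the other 6 had 37.6 to 42.0%. The side thus held 3 of 5 vehicle and 1 of 5 treated libraries. On the other side obeticholic acid 2, 3, 4 and 6 lay at −40.8 to −21.9, below vehicle 3 at −19.75 and vehicle 5 at −9.93. Whether the first component went with treatment was not tested. The third component, with 10.9% of the variance, ran from −0.24 to 32.1 in vehicle and from −25.4 to −0.46 in treated libraries, without overlap; it was singled out after the scores were seen and was not tested. None of 5 library measures (reads, genes detected, share of the 10 and of the 100 most abundant genes, distance to the group) passed between the groups in an exact two-sided permutation test; the smallest adjusted p was 0.703 over 12 libraries and 0.595 over 10. With 6 against 6 such a test can reach 0.00216, and with 5 against 5 it can reach 0.00794.

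Over all 12 libraries no gene changed past the threshold, a Benjamini-Hochberg adjusted p under 0.05 in limma-trend on log2(normalized count + 1). The share called was 0%, and the smallest adjusted p was 0.234. Before adjustment, 369 genes (4.1% of those tested) had p under 0.05 and were higher after obeticholic acid and 319 (3.54%) were lower, 7.64% together; with libraries scaled to equal totals this split was 352 and 193. Among the tools run on recovered reads, edgeR gave 0 calls and 960 genes below 0.05 before adjustment. DESeq2 gave 47 calls higher (0.522%) and 32 lower (0.355%), together 0.877%. The sizes were small: 93.6% of genes lay within 2-fold, and the median over all genes was 0.0045 on the log2 scale. The groups did not overlap in 63 genes (0.699%), with treated libraries above in 34 (0.377%) and below in 29 (0.322%).

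**Figure D2:**
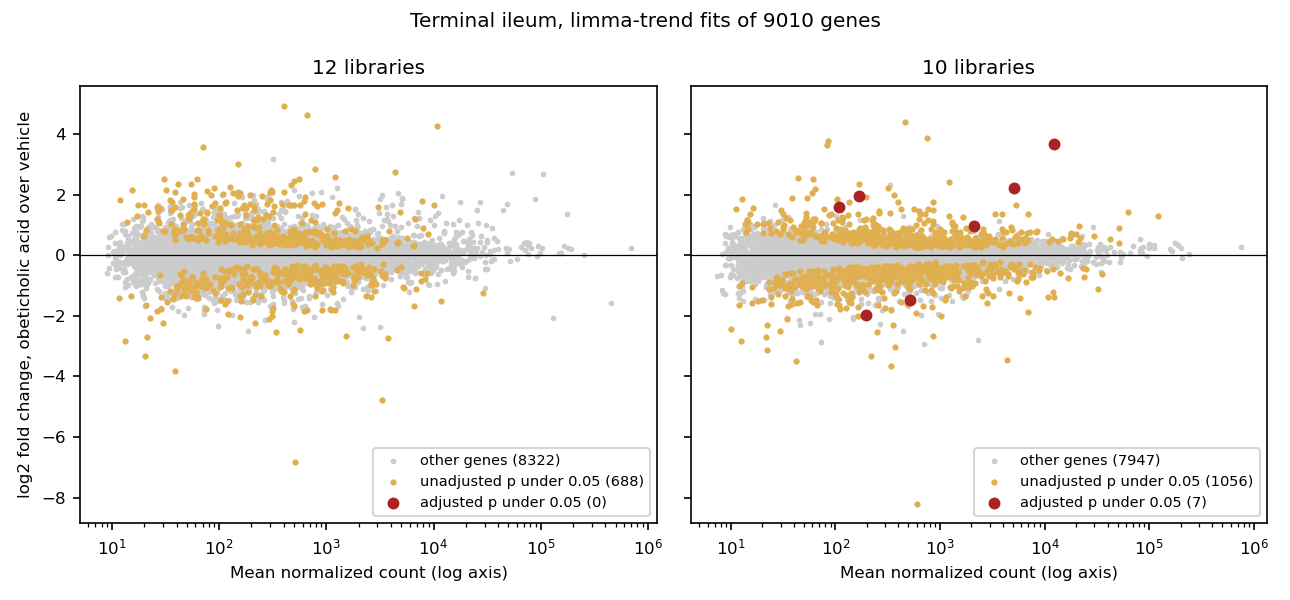
Log2 fold change, obeticholic acid over vehicle, against mean normalized count (log axis) for each of 9010 genes, in the fit of 12 libraries and in that of 10. The colours mark no call, an unadjusted p under 0.05, and an adjusted p under 0.05; 7 genes carry the last mark in the fit of 10 libraries and 0 in the fit of 12.

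The gene of lowest p over 12 libraries was ENSOCUG00000012520. It was at 35.6 (lowest), 48.96 (median) and 62.97 (highest) normalized counts after vehicle and at 100.6, 134 and 272 after obeticholic acid. Its lowest treated library was obeticholic acid 1 and its lowest vehicle library vehicle 6, and the groups did not overlap. The fold change was 1.57 ± 0.25 on the log2 scale (SE; limma adjusted p = 0.234) over 12 libraries and 1.59 ± 0.24 over 10, where it passed (limma adjusted p = 0.0454). Over the same 10 libraries the gene did not pass at equal totals (limma adjusted p = 0.0782) or with edgeR (adjusted p = 0.0503). It rested on 43 to 73 reads per vehicle library and 96 to 336 per treated library.

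ENSOCUG00000010659 was the lowest of the 4 in reads, with 17 to 36 per vehicle library and 49 to 87 per treated library. Its normalized counts were 18.02, 29.8 and 35.4 (lowest, median, highest) after vehicle and 56.6, 72.4 and 90.1 after obeticholic acid. The groups did not overlap. Vehicle 6, at 28.3, lay within the range of the other vehicle libraries, and obeticholic acid 1 was the lowest treated library. Without both its log2 fold change was 1.41 ± 0.25 (SE; limma adjusted p = 0.0807), against 1.34 ± 0.24 with them (limma adjusted p = 0.234).

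Among genes at lower values after treatment, the 2 of lowest p had groups that did not overlap with or without the libraries that stood apart. ENSOCUG00000009455 was at 485, 648 and 858 normalized counts (lowest, median, highest) after vehicle and at 226, 313 and 394 after obeticholic acid. Its log2 fold change was −1.11 ± 0.19 over 12 libraries (SE; limma adjusted p = 0.234) and −1.03 ± 0.20 over 10 (limma adjusted p = 0.0918). ENSOCUG00000008560 was at 12889, 15872 and 23919 after vehicle and at 3010, 6223 and 9264 after obeticholic acid, with obeticholic acid 1 the lowest of all. Its log2 fold change was −1.50 ± 0.27 over 12 libraries (SE; limma adjusted p = 0.234) and −1.36 ± 0.22 over 10 (limma adjusted p = 0.0556). Neither passed in either fit.

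Without vehicle 6 and obeticholic acid 1, 5 genes rose (0.0555%) and 2 fell (0.0222%) of 9010, together 0.0777%, at limma-trend adjusted p-values of 0.0127 to 0.0486. The split was 6 and 9 with libraries scaled to equal totals. Before adjustment, 532 genes (5.9%) had p under 0.05 and were higher and 531 (5.89%) were lower, together 11.8%, or 391 and 592 at equal totals. The groups did not overlap in 235 genes (2.61%), with treated libraries above in 109 (1.21%) and below in 126 (1.4%). The median standard error of the log2 fold change was 0.23 over 10 libraries and 0.29 over 12. The recovered reads gave 2 higher (0.0222%) and 1 lower (0.0111%) calls with edgeR, together 0.0333%. With DESeq2 they gave 93 (1.03%) and 98 (1.09%), together 2.12%.

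ENSOCUG00000013741 had the lowest p and rose most among the 7. In vehicle 1 to 5 it was at 1065, 2763, 1696, 1184 and 1384 normalized counts. In obeticholic acid 2 to 6 it was at 54653, 10159, 17349, 19805 and 13994. Each treated value exceeded each vehicle value, and obeticholic acid 2 stood far above the other treated libraries. The rise was 12.7-fold, or 3.66 ± 0.41 on the log2 scale (SE; limma adjusted p = 0.0127). The left-out libraries were both lower than the rest of their group, vehicle 6 at 39.6 and obeticholic acid 1 at 6338; over 12 libraries the groups still did not overlap and the log2 fold change was 4.27 ± 0.88 (SE; limma adjusted p = 0.281).

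ENSOCUG00000015168 was at 1444, 1006, 1963, 2319 and 1961 normalized counts in vehicle 1 to 5. It was at 14067, 6719, 9115, 5097 and 6861 in obeticholic acid 2 to 6, again without overlap. It rose by 2.24 ± 0.29 on the log2 scale, or 4.71-fold (SE; limma adjusted p = 0.0273). Vehicle 6, at 38.0, lay far below the other vehicle libraries, and obeticholic acid 1, at 1486, lay among them. With both included the log2 fold change was 2.74 ± 0.91 (SE; limma adjusted p = 0.546).

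ENSOCUG00000011569 fell, from 393, 339, 412, 216 and 218 normalized counts in vehicle 1 to 5 to 97.4, 72.8, 45.3, 77.7 and 104.6 in obeticholic acid 2 to 6. Vehicle 1 to 3 lay above vehicle 4 and 5, and the lowest of them was above every treated library. Its log2 fold change was −1.98 ± 0.28 (SE; limma adjusted p = 0.0408), with values 3.93-fold higher in vehicle. Vehicle 6 held 11.3 and obeticholic acid 1 held 34.6, both below every other library. Over 12 libraries the log2 fold change was −1.39 ± 0.75 (SE; limma adjusted p = 0.665).

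ENSOCUG00000007119 fell as well, from 862, 671, 845, 933 and 502 normalized counts in vehicle 1 to 5 to 242, 335, 340.4, 182 and 274 in obeticholic acid 2 to 6. All treated values lay below all vehicle values. Its log2 fold change was −1.47 ± 0.22 (SE; limma adjusted p = 0.0454), with values 2.77-fold higher in vehicle. In vehicle 6 it had 1 read (0.808 normalized counts), and obeticholic acid 1 was at 131. With these libraries the log2 fold change was −0.20 ± 1.31 (SE; limma adjusted p = 0.968). Its size depended on the method: over the same 12 libraries it was −1.34 with edgeR (adjusted p = 0.523) and with DESeq2 (adjusted p = 0.475), and −1.25 ± 0.54 in limma with sample quality weights (SE; adjusted p = 0.146).

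**Figure D3:**
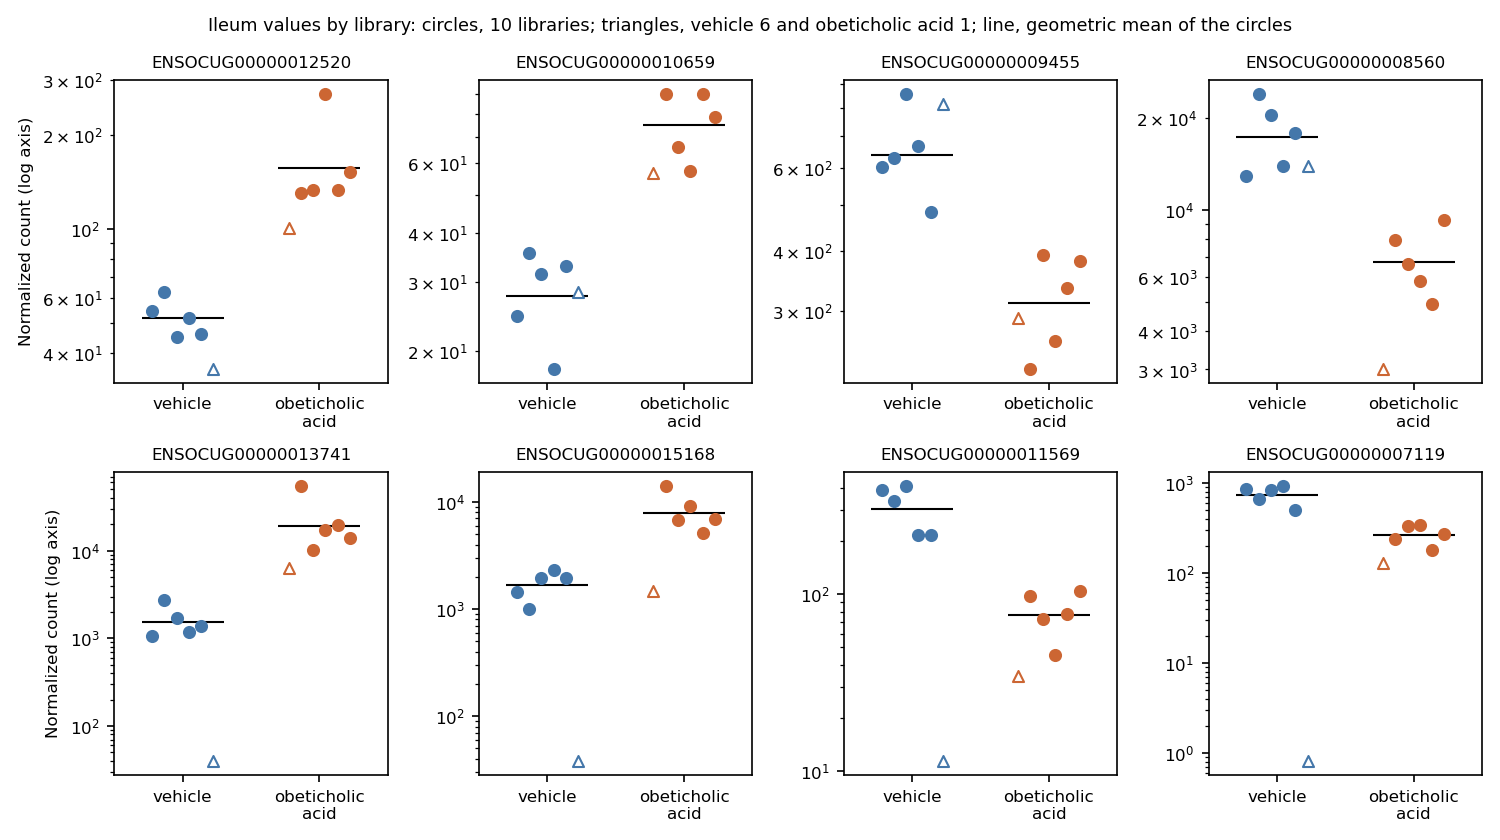
Normalized counts (log axis) of 8 genes in each ileum library by treatment; filled circles are the 10 libraries, open triangles vehicle 6 and obeticholic acid 1, and lines the geometric mean of the circles. In the upper row the groups stay apart with the triangles included, though obeticholic acid 1 lies below the other treated libraries in 3 of the 4 genes; in the lower row vehicle 6 lies far below the other vehicle libraries in all 4 genes.

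The positions of the libraries that stood apart were counted in the genes picked over 10 libraries. In all 7 genes called over 10 libraries, vehicle 6 lay below vehicle 1 to 5, and in all 7 obeticholic acid 1 lay below the other treated libraries. Of the 532 genes higher at an unadjusted p under 0.05, vehicle 6 lay below vehicle 1 to 5 in 233 and above in 132. Obeticholic acid 1 lay below the other treated libraries in 305 and above in 118. Of the 531 lower genes these numbers were 219 and 171 for vehicle 6, and 147 and 221 for obeticholic acid 1. No such counts were made over all tested genes. The genes counted were picked with vehicle 6 and obeticholic acid 1 left out, and both libraries lay apart across genes in general. Whether these positions are more common in the picked genes than in the rest was therefore not tested. Vehicle 6 was on the vehicle side of the mean of the other treated libraries in 5 of the 7. Obeticholic acid 1 was on the treated side of the mean of the other vehicle libraries in 5. Leaving out only vehicle 6 or only obeticholic acid 1 gave 0 calls each (limma-trend), with 680 and 1015 genes below 0.05 before adjustment. In bulk tissue, fewer cells of a type and less RNA per cell cannot be told apart, and what set these libraries apart was not tested. Both are labelled terminal ileum, but with no gene names neither their tissue nor their treatment label could be checked, so each value over 12 libraries rests on those labels.

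The number of calls over 10 libraries also changed when 1 further library was left out, which makes each fit smaller. There were 0 without vehicle 1, 1 without vehicle 2, 0 without vehicle 3 and 1 without obeticholic acid 6. There were 14 without obeticholic acid 3 and 22 without obeticholic acid 5, the treated library that lay with vehicle 1, 2 and 4 on the first component. ENSOCUG00000013741 passed in 8 of these 10 fits, with a limma adjusted p of up to 0.0566 and a log2 fold change of 3.29 to 3.89. Without vehicle 3 it was at a limma adjusted p of 0.0557. In that fit 1499 genes had an unadjusted p under 0.05, against 1063 over all 10 libraries. ENSOCUG00000015168 and ENSOCUG00000011569 each passed in 6 of 10 (limma adjusted p up to 0.122 and 0.139), and ENSOCUG00000007119 in 4 of 10 (up to 0.143). ENSOCUG00000012520 passed without obeticholic acid 3, 4 or 5 (limma adjusted p = 0.0398, 0.0380 and 0.0328). With any other library left out it did not pass (limma adjusted p = 0.0563 to 0.143). The named genes kept their direction in every one of these fits, and their fold changes moved by less than 1.5 times. With the replicate number as a block there were 0 calls over 10 libraries and 0 over 12.

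**Figure D4:**
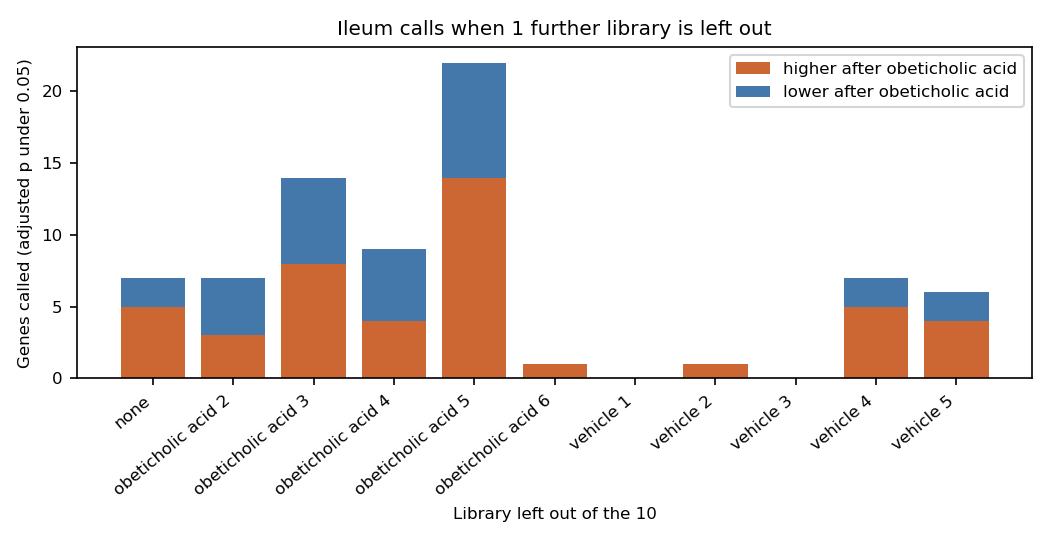
Number of genes called by limma-trend (adjusted p under 0.05) over the 10 ileum libraries and after leaving out each of them in turn; bars are stacked by direction. The count runs from 0 without vehicle 1 or vehicle 3 to 22 without obeticholic acid 5, against 7 with all 10.

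Replicates 1 to 3 and 4 to 6 follow 2 runs of library numbers and share no library, so each run gives its own comparison; the labels do not say what the runs are. Over 10 libraries ENSOCUG00000013741 differed by 3.79 ± 0.74 on the log2 scale in replicates 1 to 3 and by 3.72 ± 0.24 in 4 to 6 (SE). ENSOCUG00000015168 differed by 2.78 ± 0.41 and 1.68 ± 0.29, the widest gap between the runs among the 4 genes named over 10 libraries. ENSOCUG00000011569 was at −2.16 ± 0.26 and −1.58 ± 0.41, ENSOCUG00000007119 at −1.47 ± 0.24 and −1.41 ± 0.39, and ENSOCUG00000012520 at 1.28 ± 0.32 and 1.83 ± 0.40. These genes were chosen on the same libraries, so these values are a description, and the difference between the runs was not tested. Of the 100 genes of lowest p in replicates 1 to 3, with a mean of at least 50 normalized counts, 86 had the same sign in 4 to 6, and of the 100 of lowest p in 4 to 6, 81 had the same sign in 1 to 3. Over all 9010 genes, without that floor on the mean, the share was 62.0%, and the log2 fold changes of the runs correlated at r = 0.33. The lists of 100 and this share thus cover unlike sets of genes. With all 12 libraries, where each run holds 1 of the libraries that stood apart, the numbers were 70, 75 and 59.9%, and r = 0.29. Vehicle 6 turned the sign of ENSOCUG00000007119 in replicates 4 to 6, from −1.41 ± 0.39 without it to 1.45 ± 2.28 with it (SE).

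Changes of at least 2-fold were unevenly split, and the split moved with the setting. Over 10 libraries 110 genes were at least 2-fold higher and 276 at least 2-fold lower after treatment. Of the lower ones 245 had overlapping groups and 128 had an unadjusted p under 0.05. Of the higher ones the numbers were 76 and 97. Over all genes, 2.61% had groups that did not overlap and 11.8% had an unadjusted p under 0.05. With a term for the share of normalized counts in the 100 most abundant genes of a library, added after seeing the data, 95 were higher and 142 lower. Without obeticholic acid 5 there were 171 and 469, and over all 12 libraries 304 and 277. That term left the calls of the 4 genes named over 10 libraries in place, with limma adjusted p-values of 0.0282 to 0.0498, and gave 4 higher and 6 lower calls in all. ENSOCUG00000008560 was among the 6, at a log2 fold change of −1.51 ± 0.19 (SE; limma adjusted p = 0.0282).

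Genes were also split by mean normalized count into 4 bins of equal size. Over 10 libraries the share with an unadjusted p under 0.05 was 9.72% in the lowest bin, up to a mean of 120.4, and 12.7%, 12.8% and 12.03% in the next 3. The median size of the log2 fold change was 0.32 in the lowest bin and 0.19 in the highest, and the median standard error 0.35 and 0.18. Over 12 libraries the shares were 7.59%, 8.39%, 8.57% and 5.99%.

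The named ileal genes were then read in the liver, whose libraries played no part in choosing them. Of the 8 genes, 6 were tested in liver and 1 passed. In the non-embolized lobe ENSOCUG00000012520 rose from a mean of 44.6 ± 19.8 normalized counts to 128 ± 55.02 with treatment (SD, n = 6; limma adjusted p = 0.0230). In the embolized lobe it rose from 45.2 ± 17.03 to 148 ± 24.2 (SD, n = 6; limma adjusted p = 0.0111), without overlap between the groups. Of 8653 liver genes tested, 0.37% were called higher and 0.254% lower in the non-embolized lobe, together 0.624%. For the embolized lobe these shares were 0.0578%, 0.139% and 0.196%. ENSOCUG00000013741, the largest of the ileal rises, had vehicle and treated means of 9342 ± 2065 and 13129 ± 4311 where the liver was not embolized (SD, n = 6; limma adjusted p = 0.337, log2 fold change 0.46). Where it was embolized, the means were 6087 ± 1943 and 7891 ± 1051 (SD, n = 6; limma adjusted p = 0.412, log2 fold change 0.43). The other 4 genes tested had limma adjusted p-values of 0.504 to 0.996 in the 2 lobes. ENSOCUG00000011569 was at 0 in 23 of the 24 liver libraries and ENSOCUG00000015168 reached at most 31.8 there, too low to be tested.

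Genes called in the embolized lobe mostly had the same sign in ileum. Of the 17 called there, 14 were tested in ileum; over 10 ileum libraries 14 of 14 had the same sign, and over 12 libraries 11 of 14. Over all 8282 genes tested in both tables the share with the same sign was 60.1% and 61.7%. Of the 14, 8 had an unadjusted p under 0.05 in ileum over 10 libraries and 6 over 12, all in the direction of the liver. The share of all ileal genes below that p was 11.8% and 7.64%. Of the genes below it that were tested in both tables, 70.4% and 75.1% had the sign of the embolized lobe. The 11 that fell in the embolized lobe had a median log2 fold change of −0.59 in ileum, from −1.26 to −0.11, and of −1.22 in that lobe. The 3 that rose had 0.33 to 1.59 in ileum. Of 54 calls in the non-embolized lobe 51 were tested in ileum; 22 had the same sign over 10 libraries and 21 over 12, with 48.7% and 49.2% over all genes. Of the 51, 2 had an unadjusted p under 0.05 in ileum in the same direction and 2 in the opposite direction, over 10 libraries and over 12. Of all genes below that p tested in both tables, 51.5% and 51.3% had the sign of the non-embolized lobe. Genes are not independent replicates; across all 8282 the ileal log2 fold changes over 10 libraries correlated with those of the embolized lobe at r = 0.26 and with those of the non-embolized lobe at r = 0.07. The difference between the lobes was not tested. Ileum and liver share no library, but the labels do not say whether their libraries, or those of the 2 lobes, came from the same rabbits.

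**Figure D5:**
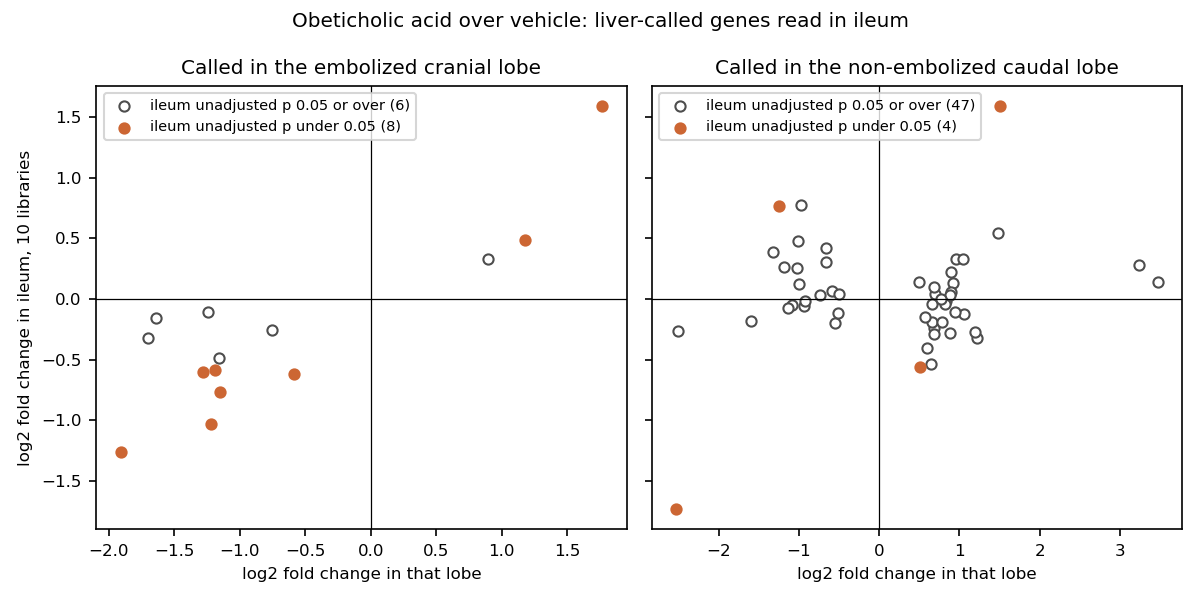
Log2 fold change, obeticholic acid over vehicle, in ileum (10 libraries) against that in the liver lobe where the gene was called, for 14 genes called in the embolized cranial lobe and 51 in the non-embolized caudal lobe; filled points have an unadjusted p under 0.05 in ileum. At left all 14 points have the same sign on both axes; at right 22 of 51 do.

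DESeq2 called more genes than limma or edgeR. Over 12 libraries 36 of its 79 calls had groups that did not overlap, against 0.699% of all genes. In limma 78 of the 79 had an unadjusted p under 0.05, against 7.64% of all genes, and their median size there was 1.47 on the log2 scale. DESeq2 picked the 79 on these same libraries, so these shares describe the calls and do not test them. All 3 edgeR calls over 10 libraries were among the 7 of limma. Over 12 libraries DESeq2 gave 455 genes no adjusted p. Of the 191 genes it called over 10 libraries, 65 were among the 79, which is 34% of the longer and 82.3% of the shorter list. All 7 limma calls over 10 libraries were among the 191. Limma with sample quality weights gave vehicle 6 a weight of 0.181 and obeticholic acid 1 a weight of 0.164, against 0.600 to 2.69 for the others, and called 144 genes higher (1.6%) and 205 lower (2.28%) over 12 libraries, together 3.87%. Over 10 libraries it called 69 (0.766%) and 85 (0.943%), together 1.71%. Of the 79 DESeq2 calls 65 were among those 349.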

How the data were processed

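Libraries kept the strand of the RNA and were read from both ends, per the labels' protocols. The tools were STAR, RSEM and DESeq2, per the submitters' processing notes; the sources used here give no version, genome build or annotation. The deposited signal is a gene count that the authors divided by 1 size factor per library. Of the values in either table, 100% were whole multiples of their library's step within 0.01, so reads could be recovered.

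Groups were compared with limma-trend (limma 3.58.1, R 4.3.3) on log2(normalized count + 1), two-sided, for genes at 10 or more in at least 6 ileum libraries. This scale understates fold changes where counts are low. The 24 liver libraries were fitted as 4 group means. edgeR 4.0.16 and DESeq2 1.42.0 were run on recovered reads with the authors' size factors. The fits were also run on simulated reads, drawn for each gene separately. No simulated library was made to stand apart, so that run does not cover the effect of vehicle 6 and obeticholic acid 1. Errors beside fold changes are standard errors.

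The libraries, lists and rules were chosen with earlier results of these data known. The text names the 2 genes of lowest p in each direction, at a mean of at least 50, in each of the 2 fits, and the most abundant gene of a group. Lists of gene symbols could not be matched to the IDs. The labels do not say that libraries of a group came from separate animals, so p-values measure only how these libraries vary, possibly for technical reasons. No pair of the 30 within groups agreed within sampling noise (smallest chi-square per degree of freedom 55.6).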

Additional observations from a re-analysis of the deposited data

Results flagged for a closer look

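Of 26 groups of 5 or 6 libraries examined, 5 held a library set off from the rest by a gap wide for the group's range, where chance gives about 1 in 20. The measures and genes were not picked independently of these values, since vehicle 6 and obeticholic acid 1 were known to stand apart and the genes had the lowest p, so the number is not set against that rate. Vehicle 6 held 43.1% of its normalized counts in its 10 most abundant genes, against 10.7 to 18.5% in vehicle 1 to 5. Its mean distance to the other vehicle libraries was 0.183, against 0.0628 to 0.0762 for those. The mean distance of obeticholic acid 1 to its group was 0.162, against 0.0561 to 0.0746. ENSOCUG00000012520 was at 272 normalized counts in obeticholic acid 4, against 100.6 to 152 in the other 5 treated libraries. ENSOCUG00000013741 was at 54653 in obeticholic acid 2, against 10159 to 19805 in obeticholic acid 3 to 6.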

How the results depend on the processing

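Over 12 libraries the count of 0 called genes stayed at 0 in 26 of 29 other settings; it was 7 without vehicle 6 and obeticholic acid 1, 79 with DESeq2 and 349 with sample quality weights. Leaving out 1 library gave 0 to 0. The 688 genes at an unadjusted p under 0.05 became 2614 with weights, 1063 without the 2 libraries and 497 with a replicate block. There were 512 within replicates 1 to 3, 257 within replicates 4 to 6, and 477 to 1061 without 1 library. The median log2 fold change of 0.0045 became 0.061 at equal totals, 0.024 at equal upper quartiles, −0.0085 within replicates 1 to 3, and −0.0060 to 0.015 without 1 library. The differences in the share of the 10 and the 100 most abundant genes, −3.72 and −1.83 percentage points (treated minus vehicle), reversed to 1.73 and 2.98 without the 2 libraries.

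Over 10 libraries the 7 calls became 0 to 22 without 1 library, 15 at equal totals, 154 with weights, 0 with the replicate block, 1 with a term for the runs, 0 and 2 within replicates 1 to 3 and 4 to 6, 3 with edgeR and 191 with DESeq2. The 1063 genes at an unadjusted p under 0.05 became 673 to 1997 without 1 library, 2572 with weights and 380 with the block. Within replicates 1 to 3 there were 1216, and within replicates 4 to 6 there were 284. Of these, 83 were below 0.05 in both runs with the same sign and 4 with opposite signs. The median of −0.0043 became −0.085 at equal totals, 0.022 at equal upper quartiles and 0.012 with weights. These combinations were chosen after seeing the data, and the cause was not tested.

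Same-numbered vehicle and treated libraries did not deviate together: 1 of 6 correlations exceeded 0.1 (−0.41 to 0.25) and 0 libraries matched best with their own number, so the numbers were not read as pairs. The 4 genes named over 12 libraries passed there with DESeq2 and with weights, and none passed when 1 of the 12 was left out. Genes with few reads, such as ENSOCUG00000010659, are limited by counting error.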

Other observations

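Genes varied widely between libraries of a group. The median gene had a highest library 2.32 times its lowest over 6 vehicle libraries and 1.75 times over 5, and 2.55 and 1.85 times in the treated group, on the log2(value + 1) scale. A range of at least 10-fold was found in 964 genes over 6 vehicle and 238 over 5, and in 709 and 210 over the treated libraries. Genes at 1 or less in a library and at 100 or more in another of the same group numbered 46 over 6 vehicle libraries and 2 over 5, and 8 and 7 in the treated group.

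Genes that followed the first named rise and fall of each fit across libraries were counted, with no such count for other genes. Over 12 libraries 1 gene correlated with ENSOCUG00000012520 at r of 0.9 or more and 1 at −0.9 or less, and with ENSOCUG00000009455 0 and 0. Over 10 libraries 11 and 12 genes did so with ENSOCUG00000013741, and 14 and 9 with ENSOCUG00000011569. Both treatments are in these points, so the counts describe treatment and spread together.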
